A study of Populus trichocarpa
Populus deltoides with 74 samples.

Results

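PCEN-L and PMFT are the poplar oligos named after CENTRORADIALIS (CEN) and MOTHER OF FT (MFT), and they were taken by name as 2 of the 217 oligos in the table. Both names point to the phosphatidylethanolamine-binding protein (PEBP) family, whose members act on the decision of a shoot meristem to flower or to go on growing. FLOWERING LOCUS T (FT), the best known member, promotes flowering. CEN of Antirrhinum and its Arabidopsis relative TERMINAL FLOWER 1 hold it back and keep meristems indeterminate, and CEN relatives in Populus are known to delay first flowering and to affect the release of buds from dormancy. MFT-class genes form a separate branch of the family, known in Arabidopsis mainly for a role in seed germination. No other oligo carried the name of a PEBP gene, FT included. Oligo sequences were not used here, so hybridisation with close relatives of either gene could not be assessed, and none of the 34621 genes of the annotation used here carried either name.

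RNA came from wild type poplar, with Populus trichocarpa and Populus deltoides both named as organism, and no transgene or treatment was given for any group. Lateral vegetative buds were sampled at ages 1, 2, 5 and 6 years and floral buds at age 6, with no stated sex. Male vegetative and male floral buds were also sampled at age 6, and no month was given for any bud. All shoot tips were labelled female. Those not labelled basal, called upper tips here, were taken at all 4 ages in each of May and June, and basal tips at ages 5 and 6 in each month. The June upper tips of age 5 had 1 RNA isolation and the other 18 groups had 2 each. Every one of the 37 isolations was hybridised with Cy5 to 2 wells, which gave 74 arrays. The labels do not say whether isolations were of different trees, so the p-values below measure spread between isolations, which may be technical.

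The floral bud label was checked against 6 flower genes. PTLF, PTAP1-1B, PTAP1-2A, PTAG1 and PTAG2 were higher in all 4 floral bud isolations than in every other isolation, whereas PTD overlapped. How many of all oligos separated in this way was not counted. No oligo was known as a marker of vegetative buds or of upper or basal tips. Array medians ran from 8.05 to 8.785 before scaling. All levels below are quantile-normalized log2 intensities averaged over the 2 wells of an isolation. All differences are on the same log2 scale with the standard error (SE) of a limma fit over the 19 groups, and a comparison passed where its p, adjusted over the 217 oligos, was under 0.05. Intensities were measured in whole organs, so fewer cells of a type and less RNA per cell cannot be told apart.

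PMFT split the samples into buds and shoot tips. In the 14 bud isolations its level was 6.97 at the lowest, 7.44 at the median and 7.64 at the highest. In the 23 shoot tip isolations it was 7.69 at the lowest, 8.16 at the median and 8.64 at the highest, so every tip isolation lay above every bud isolation. Buds and tips did not overlap in 4 of the 217 oligos (1.84%), and PMFT was the only one of these 4 that was lower in buds. The gap was narrow, and it closed under other scalings: in the values as deposited the highest bud isolation was at 7.86 and the lowest tip isolation at 7.59, and with arrays centred on their median they were at 7.76 and 7.64. Single arrays also overlapped, with the highest bud array at 7.81 and the lowest tip array at 7.57.

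**Figure D1:**
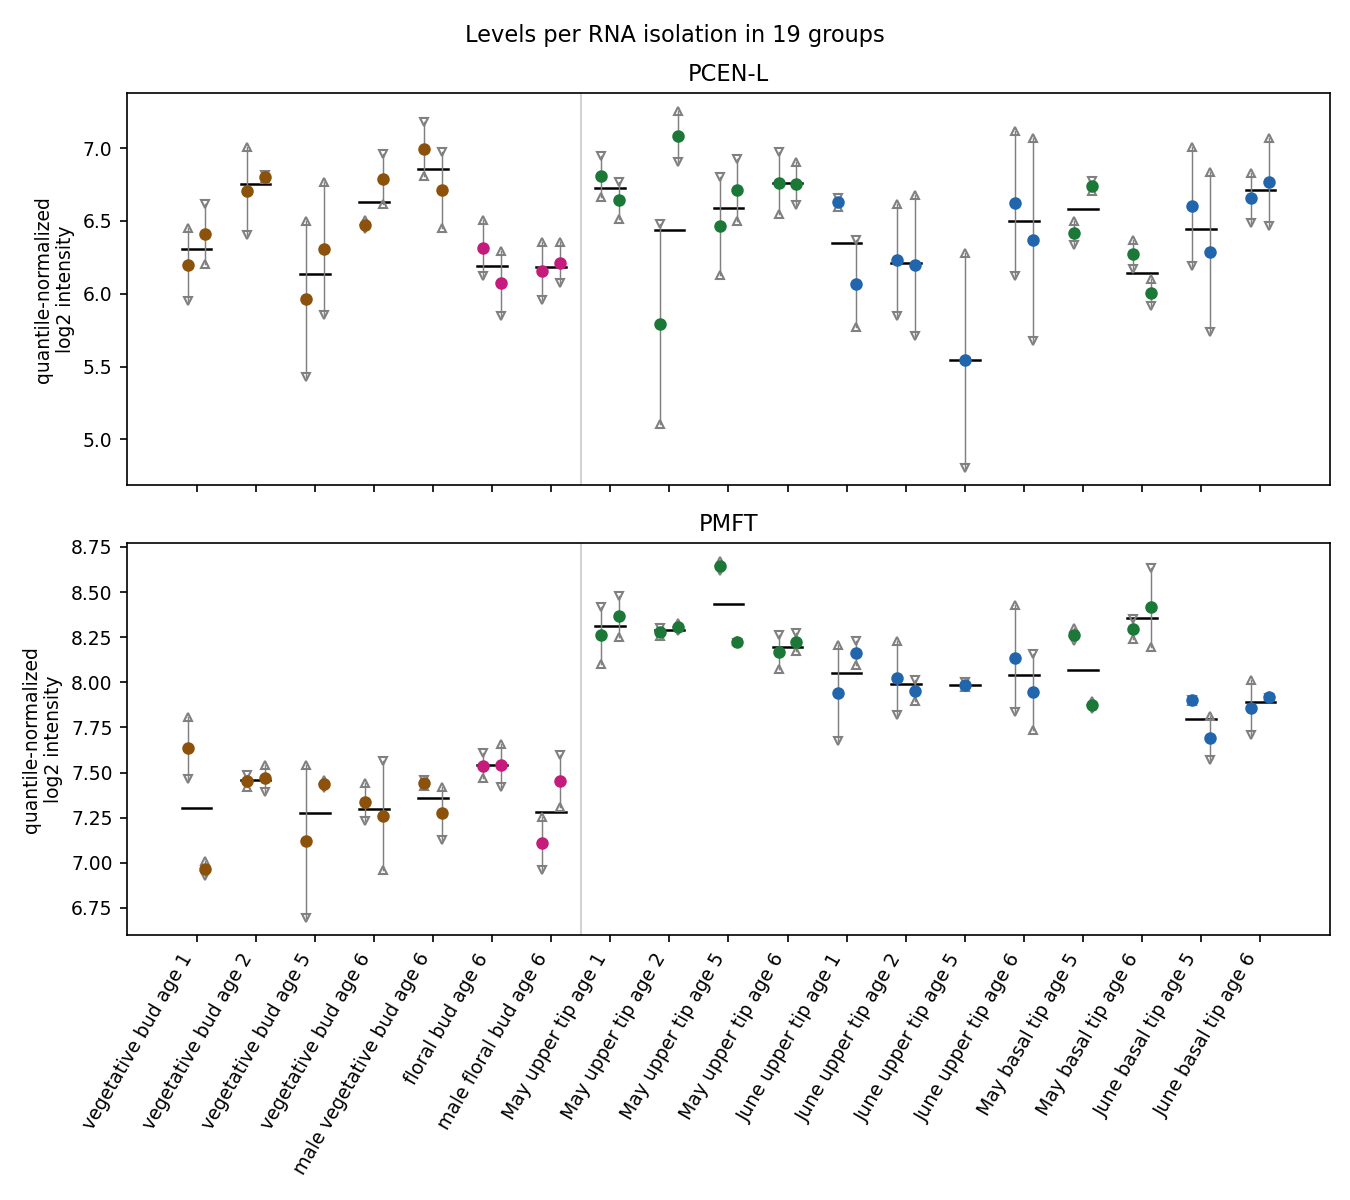
Levels of PCEN-L (top) and PMFT (bottom) in the 19 groups, as quantile-normalized log2 intensity on the vertical axis. Filled points are RNA isolations, black bars are group means, and open triangles joined by grey lines are the 2 wells of an isolation (upright for well 1, inverted for well 2). Brown marks vegetative buds, pink floral buds, green May tips and blue June tips. PMFT isolations of the bud groups, left of the grey line, all lie below those of the tip groups, while PCEN-L bud and tip isolations overlap.

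The question behind the first comparison was which transcripts differ between lateral vegetative buds and growing shoot tips of the same ages. In vegetative buds PMFT was at 7.64 and 6.97 at age 1 and at 7.45 and 7.47 at age 2. It was at 7.12 and 7.44 at age 5 and at 7.34 and 7.26 at age 6. In May upper tips it was at 8.26 and 8.37 at age 1, at 8.28 and 8.31 at age 2, at 8.64 and 8.22 at age 5, and at 8.17 and 8.22 at age 6. Each vegetative bud isolation was thus below each May tip isolation, and the levels of May tips lay close together at every age but 5.

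PMFT averaged 7.33 in vegetative buds and 8.31 in May upper tips (n = 8 isolations each), a difference of -0.97 ± 0.10 (SE, adjusted p = 1.64e-08). Of all oligos, 60.4% passed in this comparison, and 58 of the 217 differed by more than PMFT. The PMFT difference passed at 4 of 4 ages, from -0.83 ± 0.20 at age 2 to -1.15 ± 0.20 at age 5, with 12.4%, 43.3%, 53.5% and 37.8% of all oligos passing at ages 1, 2, 5 and 6. It kept its sign and passed in every alternative run, between -0.72 with the values as deposited and -1.09 with second wells only.

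In June upper tips PMFT was at 7.94 and 8.16 at age 1 and at 8.03 and 7.95 at age 2. The single isolation of age 5 was at 7.99, and those of age 6 were at 8.13 and 7.95. These 7 isolations also lay above all vegetative bud isolations. Their mean of 8.02 gave a difference of -0.68 ± 0.11 between vegetative buds and June upper tips (adjusted p = 7.21e-06), a comparison in which 67.7% of all oligos passed. It passed at 4 of 4 ages, from -0.53 ± 0.20 at age 2 to -0.75 ± 0.20 at age 1, with 23%, 41.5%, 39.2% and 50.7% of all oligos called at ages 1, 2, 5 and 6. The comparisons with May and with June tips share the 8 vegetative bud isolations, so they are not independent of each other.

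Further pairs of bud and tip groups were compared after the values had been seen. Against May basal tips of ages 5 and 6, where PMFT was at 8.26 and 7.87 and at 8.30 and 8.41, vegetative buds of those ages differed by -0.92 ± 0.14 (adjusted p = 1.07e-05, 46.1% of all oligos called). Against June basal tips of the same ages, at 7.90 and 7.69 and at 7.86 and 7.92, they differed by -0.55 ± 0.14 (adjusted p = 0.00326, 43.8% called). Floral buds of age 6, male and unstated sex pooled, differed from upper tips of age 6, months pooled, by -0.71 ± 0.14 (adjusted p = 0.000146, 66.4% called). This was -0.28 ± 0.13 with the values as deposited and did not pass (adjusted p = 0.0696). With the values as deposited the differences from May and June basal tips were also smaller, at -0.61 and -0.34, but passed (adjusted p up to 0.0486). Floral buds were not compared with basal tips.

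Isolations can differ for reasons the labels do not give. The difference between the 2 wells of an isolation, taken over all oligos, sorted the 37 isolations into 5 sets of 7, 10, 8, 2 and 10, called hybridisation sets here. The labels name no plate, so a set is only a likeness of well differences. All May upper tips lay in 1 set and all June upper tips in 2 others, and none of these 3 sets held a bud. May basal tips also lay in these sets. For upper tips and May basal tips against buds, set, organ, stated sex and any difference in sampling time therefore cannot be told apart. The 1 comparison of buds with tips that could be made inside a set was that with June basal tips, where PMFT differed by -0.48 ± 0.13 (adjusted p = 0.029). These tips were labelled female, while the buds had no stated sex or month. Organ, stated sex and sampling time therefore cannot be told apart there either.

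Among the 7 bud groups PMFT showed no difference that passed (F test, adjusted p = 0.836), whereas 53.5% of all oligos did. Floral buds stood at 7.54 and 7.54 where sex was not stated and at 7.11 and 7.45 where male, and male vegetative buds at 7.44 and 7.28. The floral minus vegetative difference at age 6 was 0.08 ± 0.14 (95% interval -0.21 to 0.37, adjusted p = 0.692), in a comparison where 29.5% of all oligos passed. It was 0.27 with the values as deposited and did not pass there either (adjusted p = 0.143). Older minus younger vegetative buds (ages 5 and 6 against 1 and 2) differed by -0.09 ± 0.14 (interval -0.39 to 0.20), again with 29.5% of all oligos called. Neither bud difference passed, which does not show that the levels were equal.

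Among the 12 shoot tip groups the F test of PMFT did not pass either (adjusted p = 0.118, 66.8% of all oligos called), though it did with the wells taken as separate arrays (adjusted p = 0.0384). PMFT averaged 8.31 in May and 8.02 in June upper tips. At each age the June isolations lay below the May isolations, which was not counted over all oligos. The June minus May difference was -0.29 ± 0.11 (n = 7 and 8, adjusted p = 0.036), and 35.9% of all oligos passed. This call ended in 9 of the 14 fits that each left out 1 isolation, with differences from -0.30 to -0.24 and adjusted p from 0.0505 to 0.0973. These were isolation a of the June tips of age 1, isolations b of the June tips of ages 2 and 6, isolation b of the May tips of age 1, both isolations of the May tips of ages 2 and 6, and isolation a of the May tips of age 5, which gave the -0.24. It also ended without June upper tips of age 5 (-0.24, adjusted p = 0.107) and with first wells only (-0.19, adjusted p = 0.29). May and June upper tips lay in different hybridisation sets, so month and set cannot be told apart. In basal tips the June minus May difference of PMFT was -0.37 ± 0.14 and missed the threshold (adjusted p = 0.0548, 27.6% called), but passed with arrays centred on their median (-0.42, adjusted p = 0.0381) and when 1 isolation, b at age 5 of the May basal tips, was left out (-0.47, adjusted p = 0.0256).

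Age and position gave no PMFT difference that passed. Older minus younger upper tips differed by 0.01 ± 0.14 in May and by -0.01 ± 0.16 in June, with 6.45% and 7.83% of all oligos called. Basal minus upper tips at ages 5 and 6 differed by -0.14 ± 0.11 (interval -0.36 to 0.08), although 46.1% of all oligos passed there. Male minus unstated sex was 0.06 ± 0.20 in vegetative buds (interval -0.35 to 0.47) and -0.26 ± 0.20 in floral buds (interval -0.67 to 0.16). Both male floral isolations lay below both of unstated sex, which was not counted over all oligos. In these comparisons 2.3% and 0% of all oligos passed. Between the wells of an isolation PMFT differed by a median of 0.15 against 0.25 for the median oligo, and 188 oligos differed by more.

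PCEN-L showed no split of organs. Its 14 bud isolations ran from 5.97 through a median of 6.36 to 6.996, and its 23 tip isolations from 5.54 through 6.60 to 7.08. Group means ran from 5.54 in June upper tips of age 5 to 6.85 in male vegetative buds, and over all 19 groups the difference did not pass (F test, adjusted p = 0.0687), where 86.6% of all oligos did. It passed with the values as deposited (adjusted p = 0.0129) and with arrays centred on their median (adjusted p = 0.00696). PMFT passed the same test (adjusted p = 1.01e-05). PCEN-L lay in the fifth of oligos with the lowest mean values, and the table gives no background signal to set it against.

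Floral against vegetative buds of age 6 asks which transcripts accompany flower formation. PCEN-L was at 6.31 and 6.07 in floral buds and at 6.47 and 6.79 in vegetative buds of unstated sex. In male buds it was at 6.15 and 6.21 in floral and at 6.996 and 6.71 in vegetative buds. All 4 floral isolations lay below all 4 vegetative isolations of that age, which was not counted over all oligos. They also lay within the range of the younger vegetative buds, which were at 6.20 and 6.41 at age 1, at 6.70 and 6.80 at age 2, and at 5.97 and 6.31 at age 5.

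PCEN-L fell by 0.56 from vegetative to floral buds of age 6 (SE 0.20, n = 4 each, adjusted p = 0.0363), from a mean of 6.74 to 6.19. Since 29.5% of all oligos passed there and 62 of the 217 differed by more, the call is a common one on this array. It did not hold with the values as deposited (-0.41, adjusted p = 0.137), nor with wells as separate arrays (adjusted p = 0.0953), nor in 5 of the 8 fits that left out 1 isolation. Leaving out vegetative buds of age 6 isolation b gave -0.48 (adjusted p = 0.118), male vegetative isolation a -0.48 (adjusted p = 0.113), floral isolation b -0.50 (adjusted p = 0.103), and the male floral isolations a and b -0.54 and -0.57 (adjusted p = 0.0953 and 0.0707). Inside the hybridisation set that held 7 of these 8 isolations the difference was -0.64 ± 0.15 (adjusted p = 0.0327). The floral difference of PCEN-L was -0.44 ± 0.28 where sex was not stated and -0.67 ± 0.28 in male buds. Neither passed alone, with 15.7% and 19.8% of all oligos called, and the male minus unstated difference between them was -0.23 ± 0.39 (adjusted p = 0.942). It is called the floral difference by sex below, although the sex of the other buds is not stated.

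The 2 wells of the same isolations gave different answers for PCEN-L. In floral buds well 1 was above well 2 in 4 of 4 isolations, and in vegetative buds of age 6 it was below in 3 of 4. With first wells only, floral minus vegetative was -0.22 ± 0.28 (adjusted p = 0.638), and with second wells only -0.89 (adjusted p = 0.000844), while the share of oligos called was about the same in both, at 24.4% and 23.5%. The choice to take wells apart was made after the well differences of PCEN-L had been seen.

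**Figure D2:**
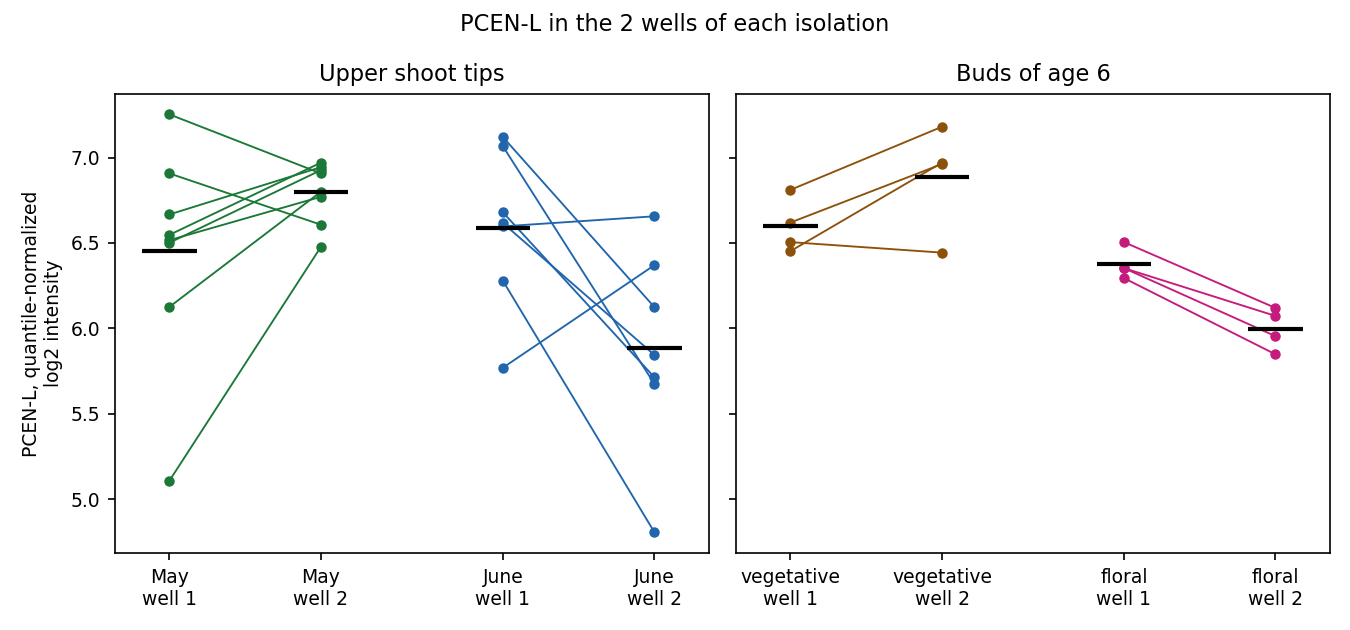
PCEN-L in well 1 and well 2 of each isolation, as quantile-normalized log2 intensity, for upper shoot tips of all ages (left) and buds of age 6 (right). Points joined by a line are the 2 wells of 1 isolation and thick black bars are means over isolations. In well 1 the May and June means are 6.45 and 6.59, and in well 2 they are 6.80 and 5.88.

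The same was seen for the month. In May upper tips PCEN-L was at 6.81 and 6.64 at age 1, at 5.79 and 7.08 at age 2, at 6.46 and 6.71 at age 5, and at 6.76 and 6.76 at age 6. In June upper tips it was at 6.63 and 6.07 at age 1, at 6.23 and 6.20 at age 2, at 5.54 in the single isolation of age 5, and at 6.62 and 6.37 at age 6. The groups overlapped at age 2, where isolation a of May had wells at 5.11 and 6.48, and the lowest June isolation, that of age 5, had wells at 6.28 and 4.81.

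June minus May upper tips differed in PCEN-L by -0.48 ± 0.15 (adjusted p = 0.0139), with 35.9% of all oligos called. Fitted on only these groups it missed the threshold (adjusted p = 0.0764). In first wells the June mean was 6.59 and the May mean 6.45, a difference of 0.10 ± 0.21 in the opposite direction (adjusted p = 0.75, 23.5% called). In second wells the June mean was 5.88 and the May mean 6.80, a difference of -1.05 (adjusted p = 4.31e-06, 43.8% called). Over both wells the difference was -0.29 and no longer passed (adjusted p = 0.173) once the single June isolation of age 5 was left out. It was -0.32 without isolation b of the May tips of age 2, and still passed. In the hybridisation set of the June upper tips of ages 2, 5 and 6, well 1 exceeded well 2 for PCEN-L in 8 of 8 isolations by a mean of 0.85. That set also held May basal tips of age 6, with smaller well differences of 0.20 and 0.18, and isolation a of the June basal tips of age 5, at 0.81. In the set of the June upper tips of age 1, well 1 was higher in 0 of 2 isolations, with a mean of -0.33. In that of the May upper tips, which also held the May basal tips of age 5, it was higher in 3 of 10, with a mean of -0.27. The month difference of PCEN-L thus sat in the second wells, and since May and June upper tips shared no set, month and set cannot be told apart.

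Basal tips give the position on the tree. PCEN-L was at 6.42 and 6.74 in May basal tips of age 5 and at 6.27 and 6.01 at age 6, and at 6.60 and 6.29 in June basal tips of age 5 and 6.66 and 6.77 at age 6. Basal minus upper tips differed by 0.12 ± 0.15 (interval -0.18 to 0.43, adjusted p = 0.499), with 46.1% of all oligos called. Without the June tips of age 5 this turned to -0.14. Inside 1 hybridisation set, 1 June isolation of each position at age 5 could be compared, and they differed by 1.06. The upper one, at 5.54, was the lowest of all isolations. The May basal and upper tips of age 5 also shared 1 set, with 2 isolations each, and differed by -0.01 ± 0.28 in the fit over all groups. Otherwise position and month were mixed with the sets. At age 6 basal and upper tips lay in different sets in both months, and at age 5 June basal tips were split over 2 sets. The set as a term could not be fitted, so its part in the next difference cannot be told apart. By month the basal difference was 0.87 ± 0.29 greater in June than in May (adjusted p = 0.0345, 24.4% called). At age 5 the basal minus upper difference was -0.01 ± 0.28 in May and 0.90 ± 0.34 in June, and at age 6 it was -0.62 ± 0.28 in May and 0.22 ± 0.28 in June. None of these 4 steps passed alone, where 33.6%, 25.3%, 4.61% and 39.6% of all oligos did. Without the June tips of age 5, whose upper group is 1 isolation, the month effect was 0.53 ± 0.34 (adjusted p = 0.283), with first wells only it was 0.35 (adjusted p = 0.625, 18.9% called) and with second wells only 1.39 (adjusted p = 0.00108, 26.3% called). In 8 of 14 fits that left out 1 isolation it no longer passed, with values from 0.79 to 0.87 and adjusted p up to 0.0784. These left out June basal tips of age 5 a or age 6 b, June upper tips of age 6 b, May basal tips of age 5 a or age 6 b, May upper tips of age 5 b, or either isolation of the May upper tips of age 6.

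Age gave no PCEN-L difference that passed. Older minus younger differences were -0.14 ± 0.20 in vegetative buds, 0.09 ± 0.20 in May upper tips and -0.26 ± 0.22 in June upper tips, and the difference of the age effect among these organs did not pass (F test, adjusted p = 0.59, 22.1% of all oligos called). The corresponding 95% intervals ran from -0.55 to 0.26, from -0.32 to 0.50 and from -0.72 to 0.19. In June upper tips the difference turned to 0.22 without the single isolation of age 5 and to 0.27 with first wells only, and it was -0.79 with second wells only (adjusted p = 0.0549). Male minus unstated sex was 0.22 ± 0.28 in vegetative and -0.01 ± 0.28 in floral buds, with 2.3% of all oligos and 0% called.

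Vegetative buds against upper tips gave no PCEN-L difference that passed in the main fit. The difference was -0.17 ± 0.14 against May (adjusted p = 0.291) and 0.31 ± 0.15 against June (adjusted p = 0.0699). The first turned to 0.11 with the values as deposited and to 0.15 with first wells only, and was -0.49 (adjusted p = 0.0032, 57.6% called) with second wells only. The second passed with the values as deposited (0.57, adjusted p = 0.0019), with arrays centred on their median (0.43, adjusted p = 0.00872) and with second wells only (0.56, adjusted p = 0.00146, 61.3% of all oligos called). It also passed without isolation a of the June upper tips of age 1 (0.38, adjusted p = 0.0349). Leaving out isolation a of the May upper tips of age 2 gave -0.33 in the first comparison (adjusted p = 0.0119). No direction against May tips is therefore given for PCEN-L. Of the comparisons added after the values had been seen, vegetative buds differed by 0.03 ± 0.20 from May basal and by -0.19 ± 0.20 from June basal tips. With the values as deposited these were 0.37 and 0.08, and neither passed under any alternative run. Floral buds differed by -0.44 ± 0.20 from upper tips of age 6 and missed the threshold (adjusted p = 0.0529). All 4 floral isolations lay below all 4 tip isolations, which was not counted over all oligos either. The difference passed with arrays centred on their median (-0.50, adjusted p = 0.0201), whereas with the values as deposited it was -0.08 (adjusted p = 0.72) and the isolations overlapped.

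**Figure D3:**
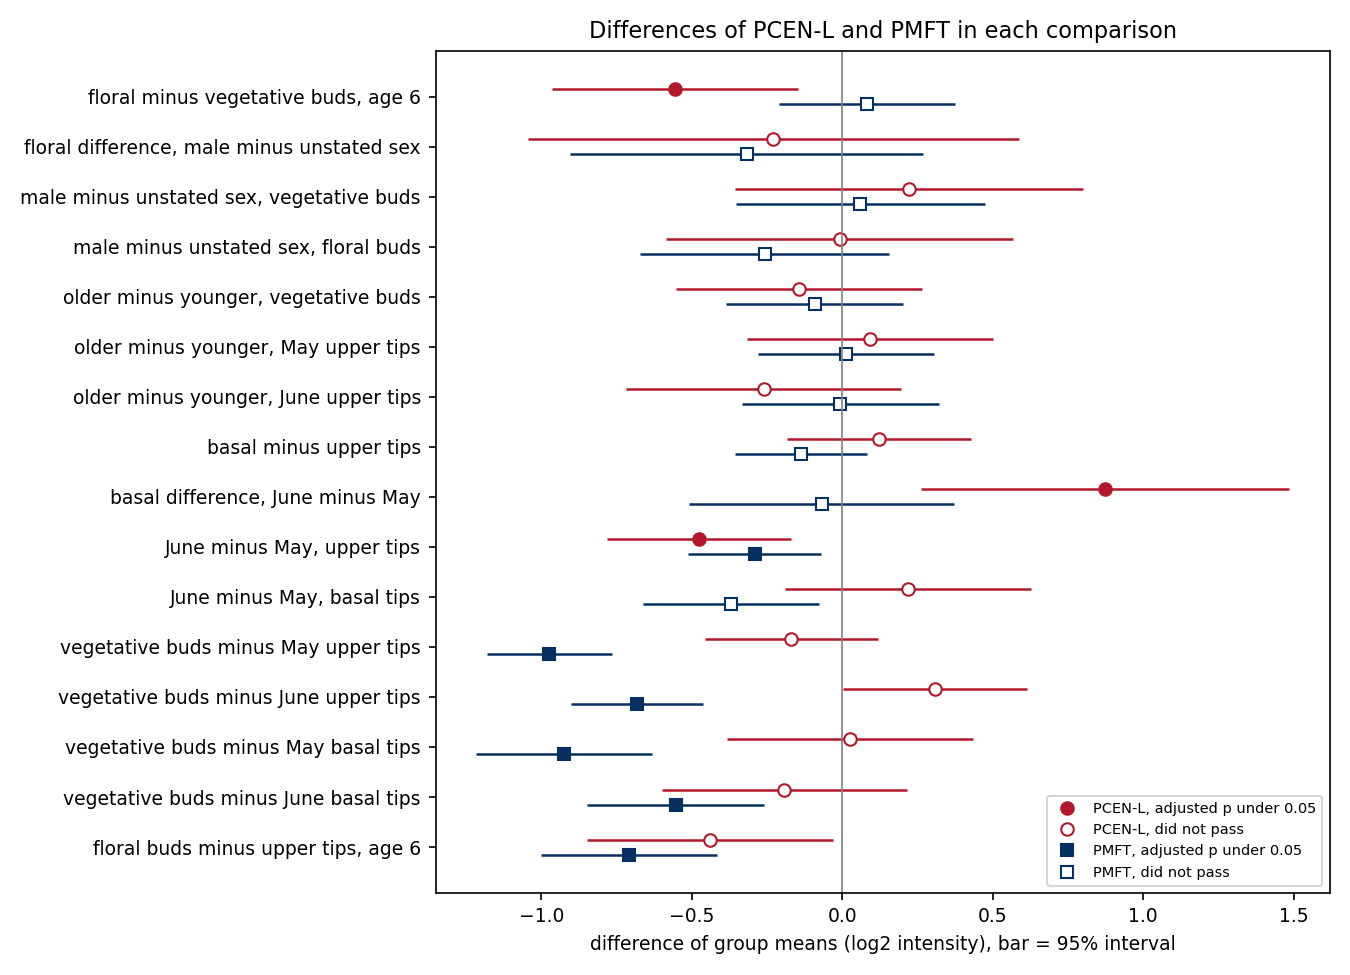
Differences of group means for PCEN-L (circles) and PMFT (squares) in each comparison, in log2 intensity on the horizontal axis, with 95% intervals as bars; filled symbols passed at an adjusted p under 0.05. PMFT passed in the 5 comparisons of buds with tips at the bottom, the largest at -0.97, and in June minus May upper tips. The last 3 comparisons were added after the values had been seen.

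The pair was then compared directly, by testing in 13 comparisons whether the difference of PCEN-L departed from that of PMFT. It did in vegetative buds minus May upper tips, where PCEN-L exceeded PMFT by 0.80 ± 0.17 (adjusted p = 0.000666 over the 13 comparisons, limma), and in vegetative buds minus June upper tips, by 0.99 ± 0.18 (adjusted p = 0.000217). Floral minus vegetative buds gave -0.64 ± 0.24 and the basal difference by month 0.94 ± 0.36, both with an adjusted p of 0.0519, and June minus May basal tips gave 0.59 ± 0.24 (adjusted p = 0.0593). The remaining 8 had adjusted p from 0.359 to 0.856. In vegetative buds against upper tips the difference of PMFT was thus more negative than that of PCEN-L. This does not show that PCEN-L was not lower, and no direction against May tips is given for it. Buds against basal tips and floral buds against any tips were not among the 13 comparisons. The flower and position differences of PCEN-L were not shown to differ from those of PMFT.

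Groups were ordered by mean to describe the levels. Sorting many means places neighbours close together, so small gaps follow from the sort and cannot tell whether groups differ. No gap between neighbours exceeded its own 95% interval in 18 neighbouring pairs for either gene. Isolations of neighbours overlapped in 17 pairs for PCEN-L and in 13 for PMFT, which was not counted over all oligos. For PMFT the order began with May upper tips of age 5 at 8.43 ± 0.30 (SD, n = 2) and May basal tips of age 6 at 8.36 ± 0.08. The 5 highest means were all of May tips, and the lowest tip mean was 7.80 ± 0.15 in June basal tips of age 5. The largest gap, 0.26, followed, before the floral buds of unstated sex at 7.54, and the order ended with vegetative buds of age 5 at 7.28 ± 0.22. For PCEN-L male vegetative buds (6.85 ± 0.20) and May upper tips of age 6 (6.76) led, while vegetative buds of age 5 (6.14) and June upper tips of age 5 (5.54, n = 1) came last.

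Likeness was measured as Pearson's r over the 19 group means, a description in which points share sets, scaling and organs. For PMFT the 3 named genes most like it were PttIAA1 at r = 0.89, PTTPIN3 at 0.80 and PttIAA5 at 0.74. PttIAA1 and PttIAA5 are named as Aux/IAA genes, repressors in auxin response, and PTTPIN3 as a PIN gene, a carrier that exports auxin. The likeness lay between organs and less within them. Over the 7 bud groups alone r was 0.36, -0.42 and -0.63 for the 3 genes, and over the 12 tip groups 0.53, -0.08 and -0.15. Of the clone oligos, I017P76P had r = 0.88 and R26F09 r = 0.82. In all, 49 of 216 oligos had r above 0.5 with PMFT and 57 had r below -0.5.

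**Figure D4:**
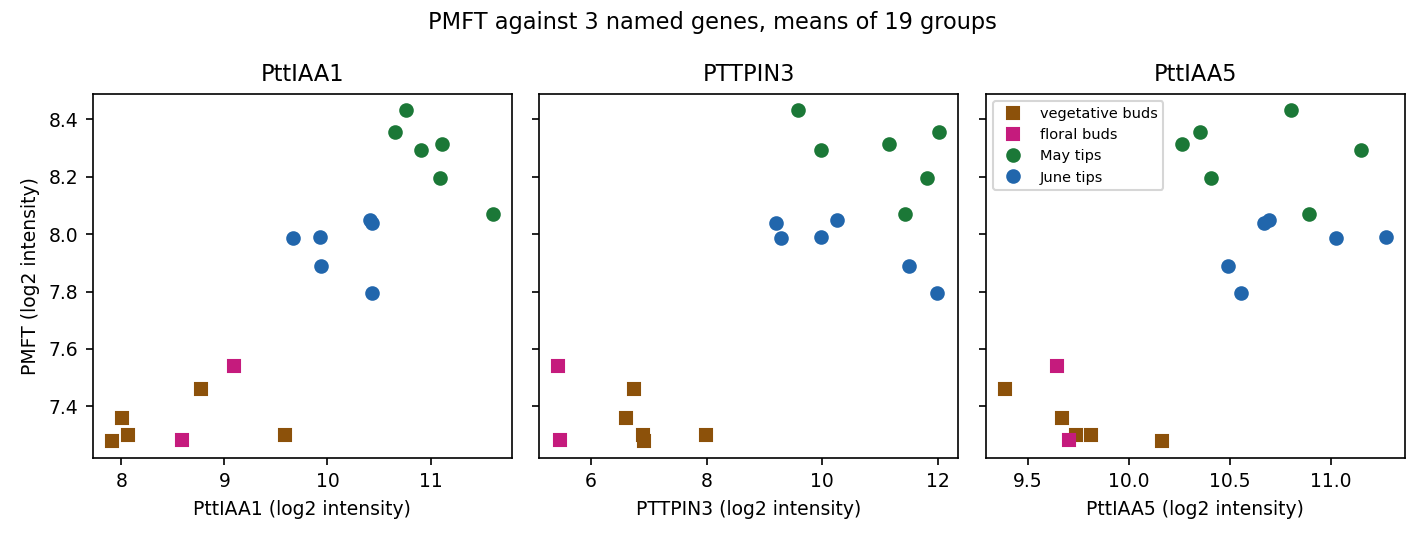
Group means of PMFT (vertical axis) against those of PttIAA1, PTTPIN3 and PttIAA5 (horizontal axes), all in quantile-normalized log2 intensity; each symbol is 1 of 19 groups, squares for buds and circles for shoot tips. Bud and tip groups form separate clouds, and within the clouds r ranges from -0.63 to 0.53.

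For PCEN-L the likeness was weaker, and 6 of 216 oligos had r above 0.5 and 4 below -0.5. The named genes were PTID1L4 at 0.54 and PTID1L3 at 0.51, relatives of maize INDETERMINATE1, a regulator of the floral transition, and the CONSTANS homolog PTCO12 at 0.46. The first of these had r = 0.83 over buds and 0.55 over tips, and the second 0.96 and 0.55. With the values as deposited r of PTCO12 was 0.17. The clone oligos V009G10 and V007E07 had r = 0.65 and 0.54. June upper tips of age 5, with 1 isolation, had the lowest of the 19 means for PCEN-L, PTID1L3, PTCO12 and V007E07. Rank correlation (Spearman) gave 0.66 for PTID1L4, 0.34 for PTID1L3 and 0.39 for PTCO12. It gave 0.49 for V009G10 and 0.41 for V007E07. PCEN-L and PMFT themselves had r = 0.04.

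Other genes of the flowering pathway give the setting. Of 3 floral meristem identity genes, the LEAFY homolog PTLF and the APETALA1 homologs PTAP1-1B and PTAP1-2A, which the CEN class is known to oppose in other plants, 3 rose in floral against vegetative buds of age 6. The rise was 1.26 ± 0.16 for PTLF, 3.39 ± 0.42 for PTAP1-1B and 5.59 ± 0.52 for PTAP1-2A, and 9.68% of all oligos rose there. Against May upper tips, vegetative buds had 3 of 3 of these genes higher, where 32.7% of all oligos were, with a median difference of 1.03 against 0.00 over all oligos. Against June upper tips 2 of 3 were higher, where 40.1% of all oligos were, and PTLF, at 0.14 ± 0.12, did not pass (adjusted p = 0.294).

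CONSTANS homologs act upstream of FT in Arabidopsis. From May to June upper tips 2 of 2 fell, PTCO11 by -0.77 ± 0.11 and PTCO12 by -1.28 ± 0.13, and 18.9% of all oligos fell there. In floral against vegetative buds PTCO11 rose by 0.52 ± 0.15 (adjusted p = 0.0127), while PTCO12 differed by 0.28 ± 0.17 and did not pass. In vegetative buds against June upper tips, where 40.1% of all oligos were called higher, so were 2 of 2, but the values hung on the scaling. PTCO11 turned from 0.44 to -0.43 with the values as deposited, and PTCO12 went from 0.95 ± 0.13 to 0.21 as deposited and 0.08 with arrays centred on their median. Against May upper tips the direction was the opposite, and 2 of 2 were lower in vegetative buds, where 27.6% of all oligos were. PTCO11 differed there by -0.32 ± 0.11 and PTCO12 by -0.33 ± 0.12. Both were also lower than in May and June basal tips, where 21.7% and 22.1% of all oligos were. Of 3 INDETERMINATE1-like genes 0 passed in floral against vegetative buds (29.5% of all oligos called) and 0 from May to June upper tips (35.9% called), where PTID1L4 differed by -0.79 ± 0.34 (adjusted p = 0.0768). In vegetative buds against June upper tips 3 of 3 were higher, against the 40.1% of all oligos, with a median difference of 0.90 against 0.14 for all oligos. Against May upper tips 1 of 3 was higher, where 32.7% of all oligos were.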

How the data were processed

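PCEN-L and PMFT were chosen by name, and the members, gene lists and comparisons were chosen with earlier results of these data known. The values deposited by the authors hold 1 number per oligo and array, from 1.10 to 16.25, and were read as log2 intensities from that range. The log base, scanner, background correction and any earlier scaling are not stated in the labels, and signal over background cannot be judged. Missing values (216, none in the 2 members) stayed missing. Arrays were quantile-normalized, the 2 wells of an isolation were averaged, and group means of 37 isolations were fitted with limma 3.58.1 in R 4.3.3 (18 residual degrees of freedom). Tests were two-sided, adjustment over the 217 oligos was Benjamini-Hochberg, group means weigh equally, and the small number of isolations limits the precision. The fit was tested on simulated data. The 2 members were named always. For each, the named genes are the 3 gene-named and 2 clone oligos of highest r, with every measured gene of the pathway lists, and the flower genes that check the bud label. Pathway lists held 3 floral meristem identity genes, 3 floral organ identity genes, 2 CONSTANS homologs and 3 INDETERMINATE1-like genes.

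Hybridisation sets came from clustering isolations on their well 1 minus well 2 differences (average linkage, mean correlation above 0.05), and May basal tips of age 5 isolation b was placed least firmly (0.0844 to its own set, 0.0352 to the next). Isolation letters did not pair groups: deviations of same-lettered isolations correlated at a median of -0.01 over 153 pairs of groups, and 34 exceeded 0.1. Alternatives were unscaled values, centring of each array on its median, wells as separate arrays or 1 at a time, only the groups compared, the dimmest oligos left out (a share of 0.2), the set as a term or held fixed, the letter as a block, June upper tips of age 5 left out, and each isolation left out.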

Additional observations from a re-analysis of the deposited data

Results flagged for a closer look

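In vegetative buds of age 5, 1 of the 4 arrays stood apart in PMFT, with the gap to its nearest array making up 0.847 of the range. That array read 6.70 and the others lay between 7.41 and 7.54. In male vegetative buds of age 6, 1 of 4 arrays read 7.13 against 7.42 to 7.46 in the others, a gap of 0.884 of the range. Both exceed the 95% critical value of 0.829 for 4 values. With 4 independent values chance marks about 1 in 20 of such groups, of which 36 were looked at over the 2 genes. The 4 arrays were 2 wells of each of 2 isolations, so that rate may not hold here. The basal minus upper difference of PCEN-L was 0.8726 greater in June than in May and differed between the months by its own test, with the limits given above.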

How the results depend on the processing

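PMFT kept its sign and its call in vegetative buds against May and June upper tips and May and June basal tips under every alternative that could be fitted. The set as a fixed term could not be fitted for the first 3 of these. Leaving out the dimmest oligos removes PCEN-L, so that alternative has no PCEN-L value. The isolation letter as a replicate block changed no call, and PMFT in older minus younger June upper tips, at -0.00728 in the report's fit, became 0.00545. The median oligo moved by over 0.1 between scalings: in floral minus vegetative buds it was at -0.07, with deposited values at 0.12 and with median centring at -0.10, and in vegetative buds minus May upper tips at 0.00, -0.01 and -0.17. In vegetative buds minus June upper tips it was at 0.14, -0.02 and -0.15, and in floral buds minus upper tips at -0.06, 0.10 and -0.32. The cause of the changes below was not tested.

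With the values as deposited PCEN-L gave -0.41 in floral minus vegetative buds, 0.015 in the floral difference by sex, -0.14 in male minus unstated vegetative buds, 0.11 and 0.57 in vegetative buds minus May and June upper tips and 0.075 minus June basal tips. Its F tests gave adjusted p = 0.0367 over the 12 tip groups and 0.0129 over all groups. PMFT gave -0.04 in male minus unstated vegetative buds, 0.0225 in older minus younger June upper tips and -0.28 in floral buds minus upper tips. With median centring PCEN-L gave 0.035 in the floral difference by sex, -0.09 in male minus unstated vegetative buds, 0.43 in vegetative buds minus June upper tips and -0.50 in floral buds minus upper tips, and its F tests gave 0.0136, 0.0246 and 0.00696 over buds, tips and all groups. PMFT gave -0.00188 and 0.0106 in older minus younger May and June upper tips and -0.42 in June minus May basal tips.

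With first wells only PCEN-L gave -0.22 in floral minus vegetative buds, 0.27 in older minus younger June upper tips, 0.35 in the basal difference by month, 0.098 in June minus May upper tips and 0.15 in vegetative buds minus May upper tips. PMFT gave 0.0118 in the basal difference by month and -0.19 in June minus May upper tips. With second wells only PCEN-L gave 0.0296 in male minus unstated floral buds, -0.0798 in June minus May basal tips, -0.49 and 0.56 in vegetative buds minus May and June upper tips and -0.13 minus May basal tips. Its F tests gave 0.00124, 0.000172 and 5.87e-05 over buds, tips and all groups. PMFT gave -0.10 in male minus unstated vegetative buds and -0.0285 and 0.0645 in older minus younger May and June upper tips.

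With wells as separate arrays PCEN-L no longer passed in floral minus vegetative buds (-0.56) and in the basal difference by month (0.87), while PMFT passed in June minus May basal tips (-0.37) and over the 12 tip groups (0.0384). With only the groups compared PCEN-L gave -0.48 in June minus May upper tips, no longer past the threshold, and passed in floral buds minus upper tips (-0.44) and over buds (0.0347). Without the dimmest oligos PMFT passed in June minus May basal tips (-0.37). Within a set PMFT was 0.0232 in older minus younger June upper tips, and as a slope per year of age -0.00484 in May upper tips. Without June upper tips of age 5, older minus younger June upper tips gave 0.22 for PCEN-L and 0.0197 for PMFT, and June minus May upper tips -0.29 and -0.24. PCEN-L then gave -0.14 in basal minus upper tips and 0.53 in the basal difference by month.

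Leaving out 1 isolation moved PCEN-L between -0.64 and -0.48 in floral minus vegetative buds, 0.79 and 0.95 in the basal difference by month, -0.13 and 0.11 in male minus unstated floral buds, -0.23 and 0.41 in older minus younger May upper tips, and 0.24 and 0.38 in vegetative buds minus June upper tips. Against May upper tips it moved between -0.33 and -0.0085, against May basal tips between -0.0598 and 0.11, and its F tests between 0.00145 and 0.116 over all groups and 0.00304 and 0.161 over tips. PMFT moved between -0.34 and -0.24 in June minus May upper tips, -0.47 and -0.27 in basal tips, -0.17 and 0.037 in the basal difference by month, -0.0058 and 0.17 in floral minus vegetative buds, and -0.0234 and 0.14 in male minus unstated vegetative buds. In older minus younger it moved between -0.062 and 0.048 in June tips, -0.0935 and 0.12 in May tips and -0.26 and 0.0745 in vegetative buds. The count of called oligos went from 100 to 26 for basal minus upper tips within a set, from 78 to 51 for June minus May upper tips with first wells, and from 5 to between 0 and 18 for male minus unstated vegetative buds. It went from 17 to between 0 and 40 for age in June tips, from 14 to between 2 and 22 for age in May tips, from 0 to at most 2 for the floral difference by sex and from 0 to at most 13 for male minus unstated floral buds.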
